A study of Homo sapiens with 16 samples.

Results

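The glycolysis and hypoxia response was followed through 38 genes for glucose uptake, glycolysis, lactate export and the answer to low oxygen. They were picked by symbol from the pathways named here, with earlier results of these data known, so counts among them are descriptive. All 38 were found among the 22445 genes of the processed expression table. Molm14, a line of acute myeloid leukaemia (AML) cells with a rearranged KMT2A gene, was cultured under 4 conditions, with 4 RNA-seq libraries each. DMSO denotes the control libraries. Libraries named iDOT1L received EPZ5676 at 0.16 uM, an inhibitor of the histone methyltransferase DOT1L. Libraries named iEZH2 received GSK126 at 0.3 uM, which blocks EZH2, the enzyme of the Polycomb complex PRC2. Combo libraries received both, at the doses the series gives for each. Exposure lasted 7 days, with medium and compound renewed on day 4, although the extraction notes time the RNA from a cell sort instead. All groups come from this line alone, and no label says whether replicates were separate cultures, so p-values reflect no more than the spread among these libraries, which may be technical.

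Glycolysis splits glucose into pyruvate, which lactate dehydrogenase turns into lactate for export, or which enters mitochondria for oxidation. HIF1 is the transcription factor that adapts cells to low oxygen: its alpha subunit, HIF1A, is marked for destruction by oxygen-dependent prolyl hydroxylases (the EGLN proteins), and when stabilised it raises transcription of glucose transporters, most glycolytic enzymes and the pyruvate dehydrogenase kinase PDK1. Leukaemic blasts, like many dividing cells, are known to take up much glucose and to make lactate even where oxygen is present.

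Levels are given as normalised counts, which were recovered from the deposited log2 values, always in the order of replicates 1 to 4. Estimated depth was 20.7 to 27.2 M reads per library. The 10 myeloid markers examined were present in every library, whereas the T cell and erythroid markers in the table stayed below 50 normalised counts in all 16 libraries. CD3E and HBB had no row under these symbols, so each of these 2 lists rests on 2 of its 3 markers. Levels within the myeloid list shifted with treatment, in both directions. From DMSO to Combo, mean LYZ went from 2463 to 15958 normalised counts, MPO from 862 to 5237 and CSF1R from 433 to 659, and CD33 was also higher. FLT3 went from 9243 to 3464 and MEIS1 from 1582 to 722, and the means of SPI1, CEBPA, PTPRC and HOXA9 were lower too. The sum of the list, in which LYZ rose most, went from a range of 36428 to 41046 to a range of 45849 to 54060. With iDOT1L the sum was 46237 to 50616 and with iEZH2 31933 to 37794. The 3 stroma markers summed to 55.8 to 126 with DMSO, 118 to 269 with iDOT1L, 78.9 to 251 with iEZH2 and 213 to 284 with Combo, with COL1A1 the most abundant. The 3 B cell markers summed to at most 141 in any library, with MS4A1 at or near 0. Of the epithelial markers KRT18 was present at 406 to 982 normalised counts. DOT1L averaged 6796 normalised counts with DMSO and 6500 with iDOT1L, and EZH2 averaged 1906 with DMSO and 2267 with iEZH2; the compounds act on the proteins, so these transcripts do not check the treatment. Mitochondrially encoded mRNA made up 2.13% ± 0.38 of all counts with DMSO, 2.46% ± 0.466 with iDOT1L, 2.66% ± 0.645 with iEZH2 and 3.15% ± 0.436 with Combo (mean ± SD, n = 4). Ribosomal protein mRNA made up 10.4% ± 0.443, 11.5% ± 0.732, 11.3% ± 0.985 and 13.0% ± 1.69 in the same order. The part of these shares and markers in the results below was not tested.

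The 38 genes together held 1.84% ± 0.0845 of all counts with DMSO, 1.54% ± 0.146 with iDOT1L, 1.49% ± 0.126 with iEZH2 and 1.26% ± 0.123 with Combo (mean ± SD, n = 4). In these bulk libraries, fewer cells of a kind and less RNA per cell cannot be told apart. Replicates of the same number deviated together for these genes. The replicate 1 library was the highest of its group in all 4 groups for 20 of the 38, against 4.77% of the 12270 genes with a mean of at least 50. The replicate 2 library was the lowest in all 4 groups for 15 of the 38, against 8.84% of those genes. The deposited names of same-numbered libraries end in the same digits in all 4 groups, Combo included, and these digits are not explained. Because the labels do not say what a replicate number stands for, whether it marks a shared culture or day was not tested. Fold changes below are therefore accompanied, where the call differs, by an adjusted p from a fit with the replicate number as a block. In that fit same-numbered libraries are compared as pairs. It held all 16 libraries, so the Combo libraries share in its replicate effects and its spread. Its adjusted p is given for comparisons among iDOT1L, iEZH2 and DMSO, whose same-numbered libraries correlated above 0.1 in every pair. It is not given for Combo, whose lowest same-numbered correlations were 0.0362 to 0.0528.

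**Figure D1:**
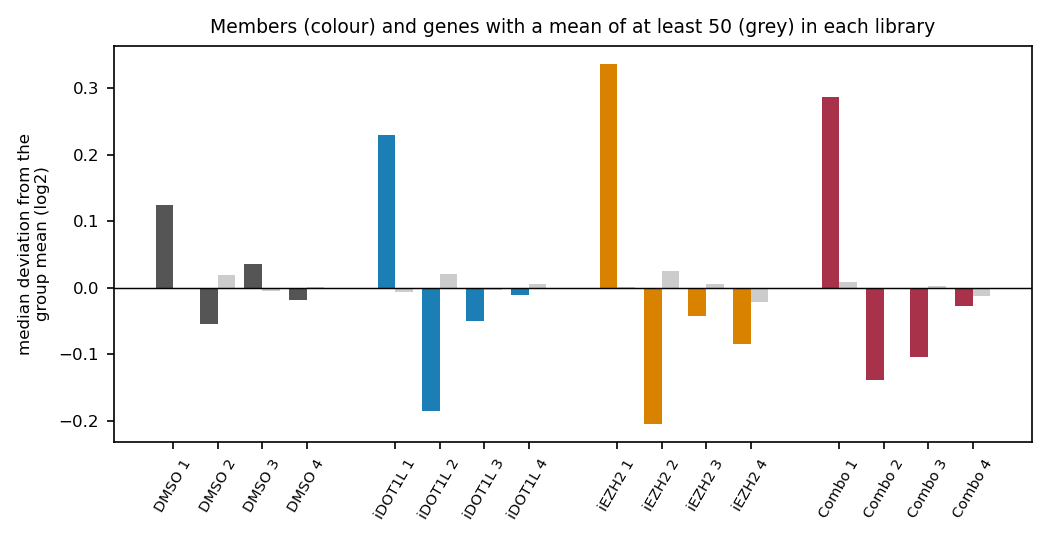
Median deviation of a library from the mean of its group in log2 units (y axis), for the 38 genes (coloured bars) and for all genes with a mean of at least 50 normalised counts (grey bars), in each of the 16 libraries (x axis). Replicate 1 lies above 0 for the 38 genes in every group, at 0.12 with DMSO, 0.23 for iDOT1L, 0.34 for iEZH2 and 0.29 for Combo. Replicate 2 lies below 0 in every group.

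With Combo, 27 of the 38 genes fell against DMSO and none rose (limma with Benjamini-Hochberg adjustment over 22331 genes, adjusted p under 0.05). Of all genes tested, 8.8% were called lower and 7.22% higher. Among the 4851 genes with a mean of at least 1000 normalised counts, a level that 30 of the 38 reach, 19.3% were called lower. With iDOT1L, 7 of the 38 fell and none rose, beside 3.17% of all genes called lower and 3.08% higher, and 5.63% of the abundant genes lower. With iEZH2, 8 fell and none rose, beside 2.05% of all genes called lower and 1.3% higher, and 4.91% of the abundant genes lower. The median log2 fold change of the 38 was -0.31 with iDOT1L, -0.43 with iEZH2 and -0.60 with Combo, while the median of all genes tested was 0.01, 0.02 and 0.03. The mean was highest with DMSO for 31 of the 38 and lowest with Combo for 31. The same shares over all genes were not computed, so these 2 counts have no background beside them. The 3 comparisons share the same 4 DMSO libraries and are set side by side here without a test of their likeness.

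With same-numbered libraries as pairs, 21 fell and 1 rose with iDOT1L (6.53% of all genes called lower and 5.69% higher), and 26 fell and 1 rose with iEZH2 (5.89% and 3.87%). Without the 4 replicate 1 libraries, an alternative chosen after the pattern above was seen, 14 fell with iDOT1L, 19 fell with iEZH2 and 29 fell with Combo, where 2.89%, 2.7% and 7.76% of all genes were called lower. Leaving out 1 library at a time left 24 to 29 lower with Combo. Of all genes, 1473 to 1999 were then called lower, beside 1966 with every library. With iDOT1L such fits left 3 to 10 lower, beside 452 to 688 of all genes. The count was 4 without DMSO replicate 1, 4 without DMSO replicate 3 and 3 without iDOT1L replicate 3. In the same order 512, 501 and 452 of all genes were called lower, beside 709 with every library. With iEZH2 such fits left 6 to 17 lower, beside 242 to 692 of all genes. The count was 17 without iEZH2 replicate 1, where 692 of all genes were called lower, beside 458 with every library.

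**Figure D2:**
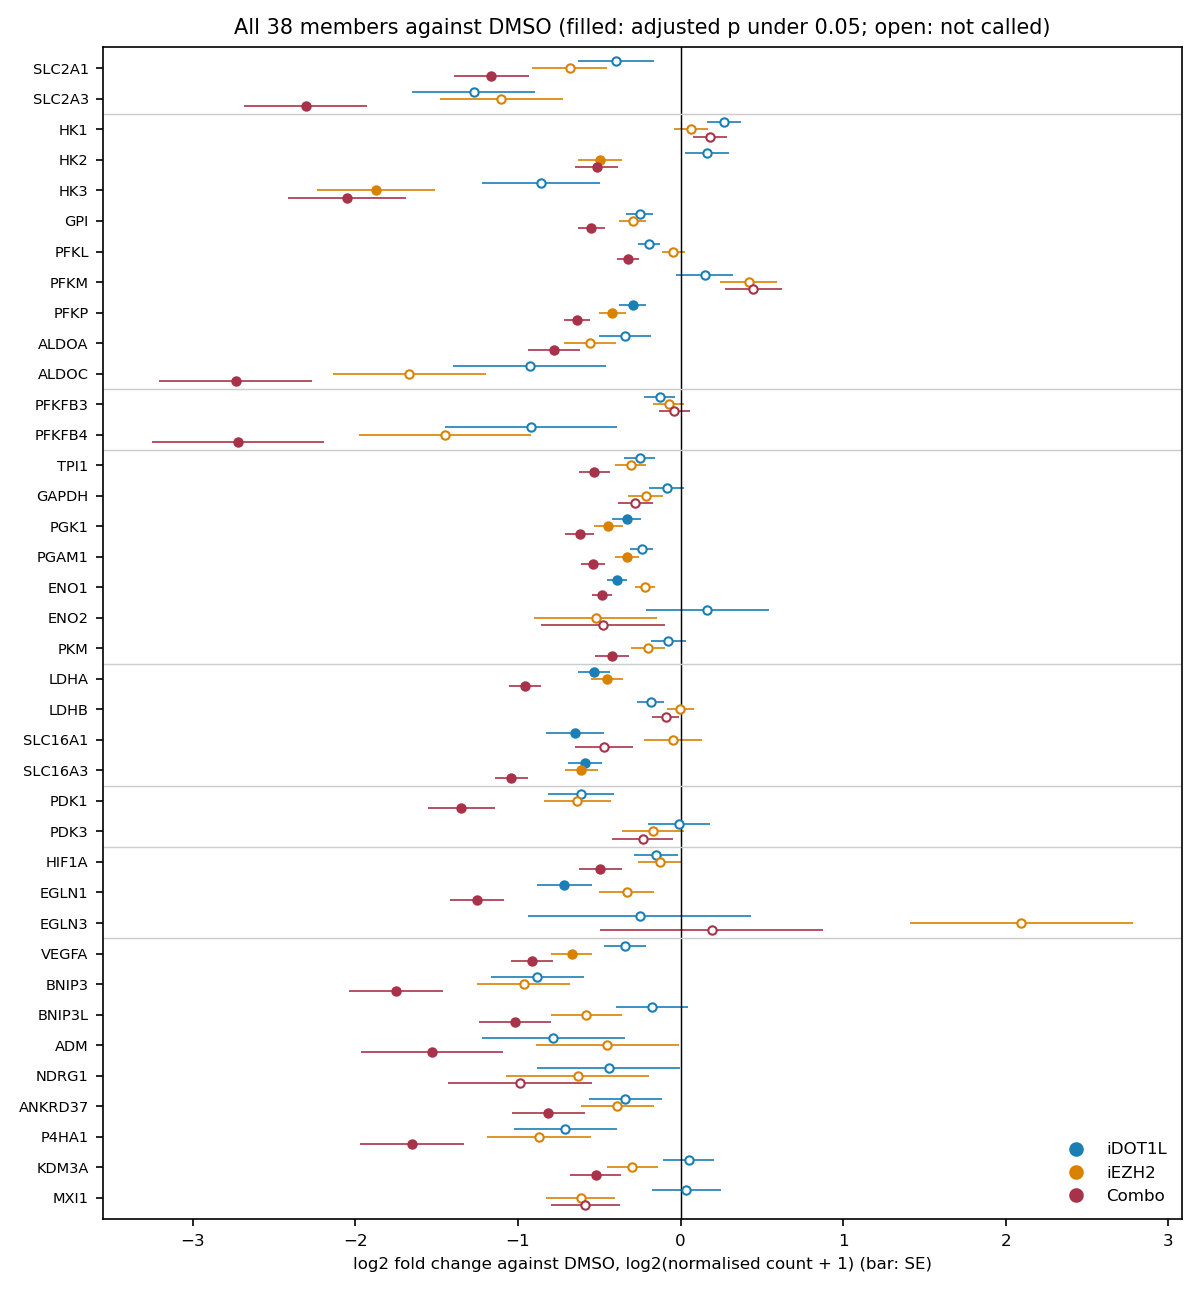
Log2 fold change against DMSO on the log2(normalised count + 1) scale (x axis) for each of the 38 genes (y axis), ordered by role, with SE bars, for iDOT1L (blue), iEZH2 (orange) and Combo (red). Filled points have an adjusted p under 0.05. All 27 filled Combo points lie to the left of 0, with ALDOC (-2.74) and PFKFB4 (-2.72) farthest, and EGLN3 with iEZH2 (2.10, not called) lies farthest to the right.

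Both glucose transporters fell with Combo and neither was called with a single compound. SLC2A1 (ENSG00000117394, chr1:42925375-42959176, GRCh38), which encodes the widely expressed transporter GLUT1, read 2962, 2199.5, 2665 and 2114 normalised counts with DMSO, 2789, 1421, 1773 and 1738 with iDOT1L, 2459, 1135, 1321 and 1500.4 with iEZH2, and 1494, 958, 947 and 1069 with Combo. Every Combo library lay below every DMSO library, while replicate 1 of each single treatment reached into the DMSO range. Its log2 fold change with Combo was -1.17 ± 0.23 (adjusted p = 0.0022); the error of every log2 fold change is its SE. With iDOT1L it was -0.40 ± 0.23 (adjusted p = 0.407, as pairs 0.0139) and with iEZH2 -0.68 ± 0.23 (0.134, as pairs 0.000301). SLC2A3 (ENSG00000059804, chr12:7919230-7936275) encodes GLUT3, a transporter with high affinity for glucose. It read 13263, 7531, 10486 and 9836 normalised counts with DMSO, 7843, 2655, 3782 and 3836 with iDOT1L, 9154, 3168, 4444 and 3756 with iEZH2, and 3432, 1528, 1787 and 1842 with Combo. The Combo libraries were the lowest group, and only replicate 1 of iDOT1L and of iEZH2 overlapped DMSO. SLC2A3 fell by 2.30 on the log2 scale with Combo (SE 0.38, adjusted p = 0.00085). The differences with iDOT1L, -1.27 ± 0.38 (adjusted p = 0.0678, as pairs 2.52e-06), and iEZH2, -1.10 ± 0.38 (0.152, as pairs 1.39e-05), were called in the paired fit only. Since 30.4% of the 31-base words of SLC2A3 transcripts also occur in other genes, mostly SLC2A14, its level is uncertain.

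Of the 9 genes from hexokinase to aldolase, 7 fell with Combo, 3 with iEZH2 and 1 with iDOT1L. Hexokinases trap glucose by phosphorylation. HK2 (ENSG00000159399, chr2:74833981-74893359), the inducible form bound to mitochondria, read 3278, 2775, 2689 and 2446 normalised counts with DMSO, 4386, 2651, 2927 and 2744 with iDOT1L, 2213, 2030.5, 1825 and 1839 with iEZH2, and 2104, 2085, 1895 and 1719 with Combo. All iEZH2 and Combo libraries lay below the DMSO range, and iDOT1L replicate 1 was the highest of the 16. HK2 fell with Combo (-0.52 ± 0.13, adjusted p = 0.0118, and 0.0501 without DMSO replicate 1) and with iEZH2 (-0.50 ± 0.13, adjusted p = 0.047). The iEZH2 call was lost in 7 of the 8 fits that left out 1 library (adjusted p up to 0.17). HK3 (ENSG00000160883, chr5:176880869-176899332), a hexokinase of white blood cells, was scarce at 45.1, 59.7, 80.1 and 68.1 normalised counts with DMSO, 27.1, 29.3, 41.7 and 38.8 with iDOT1L, 26.2, 9.13, 9.67 and 28.7 with iEZH2, and 22.9, 16.9, 9.12 and 11.2 with Combo. Each treated library lay below every DMSO library. HK3 fell with iEZH2 (-1.87 ± 0.36, adjusted p = 0.00627) and with Combo (-2.05 ± 0.36, adjusted p = 0.000548), and differed by -0.86 ± 0.36 with iDOT1L (adjusted p = 0.205). HK1, the constitutive form, averaged 498 ± 53.9 normalised counts with DMSO and 598 ± 37.8 with iDOT1L (mean ± SD, n = 4; 0.27 ± 0.10, adjusted p = 0.16). In the paired fit HK1 was called higher with iDOT1L (adjusted p = 0.025). Per kb of transcript, the level of HK2 was 3.39 to 3.67 times that of HK1 in the DMSO libraries, 2.79 to 4.26 times with iDOT1L, 2.3 to 2.51 times with iEZH2 and 2.04 to 2.28 times with Combo; this ratio was chosen after the values were seen and carries no test.

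GPI (ENSG00000105220, chr19:34359480-34402413), which turns glucose 6-phosphate into fructose 6-phosphate, read 15301, 13756, 13803 and 13686 normalised counts with DMSO, 13632, 11060.2, 11122 and 11782 with iDOT1L, 12462, 11671, 11356 and 10605 with iEZH2, and 10973, 8908, 9325 and 9529 with Combo. No treated library reached the DMSO range. GPI fell with Combo (-0.55 ± 0.08, adjusted p = 0.000152), and differed by -0.25 ± 0.08 with iDOT1L (adjusted p = 0.0921, as pairs 0.00262) and -0.30 ± 0.08 with iEZH2 (0.063, as pairs 0.00104). Phosphofructokinase, the committed step of glycolysis, has a liver, a muscle and a platelet form. The platelet form PFKP (ENSG00000067057, chr10:3066333-3137712) read 3927, 4235, 3968 and 3991 normalised counts with DMSO, 3431, 3208, 3061 and 3446 with iDOT1L, 3218, 3313, 2941 and 2614 with iEZH2, and 2370.4, 2767, 2626 and 2613 with Combo. The 4 DMSO libraries were the 4 highest, and the 4 Combo libraries included the lowest of all. PFKP fell in the iDOT1L libraries (-0.30 ± 0.08, adjusted p = 0.0363), with iEZH2 (-0.42 ± 0.08, 0.00639) and with Combo (-0.64 ± 0.08, 2.26e-05). Leaving out 1 library ended the iDOT1L call in 7 of 8 fits (adjusted p up to 0.13).

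The liver form PFKL (ENSG00000141959, chr21:44300051-44327376) read 7314, 7944, 7622 and 7659 normalised counts with DMSO, 6512, 6806, 6778 and 6565 with iDOT1L, 7603, 7854, 7219 and 6926 with iEZH2, and 5459, 6269, 6399 and 6301 with Combo. Its iDOT1L and Combo libraries lay below the DMSO range and its iEZH2 libraries overlapped it. PFKL fell with Combo (-0.32 ± 0.07, adjusted p = 0.00299) and differed by -0.20 ± 0.07 with iDOT1L (adjusted p = 0.118, as pairs 0.0253) and -0.05 ± 0.07 with iEZH2 (0.813). The muscle form PFKM was scarce, at 58.6 ± 4.53 normalised counts with DMSO and 81.2 ± 16.2 with Combo (mean ± SD, n = 4), and its Combo value was higher without being called (0.45 ± 0.18, adjusted p = 0.0955). All 4 iEZH2 libraries of PFKM lay above DMSO, also uncalled (0.42 ± 0.18, adjusted p = 0.239). Per kb of transcript PFKP stood at 0.571 to 0.589 of PFKL with DMSO, 0.496 to 0.578 with iDOT1L, 0.414 to 0.464 with iEZH2 and 0.45 to 0.484 with Combo, described without a test.

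Aldolase cleaves fructose 1,6-bisphosphate into triose phosphates. ALDOA (ENSG00000149925, chr16:30064164-30070457), the main form of most tissues, read 54669.6, 43606, 50589 and 49812 normalised counts with DMSO, 49729, 32437, 35887 and 40264 with iDOT1L, 42540.0, 27774, 31915 and 33936 with iEZH2, and 40974, 23762, 25589.5 and 27817 with Combo. In Combo and iEZH2 all libraries lay below DMSO. ALDOA fell with Combo (-0.78 ± 0.16, adjusted p = 0.00253) and differed by -0.34 ± 0.16 with iDOT1L (adjusted p = 0.278, as pairs 0.00211) and -0.56 ± 0.16 with iEZH2 (0.0687, as pairs 4.54e-05). With 53.6% of its words shared, mostly with the overlapping annotation AC093512.2, its level is uncertain. ALDOC (ENSG00000109107, chr17:28573115-28577264), the form named for brain, read 2869, 1351, 2444 and 2326 normalised counts with DMSO, 1948, 609, 1132 and 1248 with iDOT1L, 1362, 366, 584 and 734 with iEZH2, and 715, 215, 241 and 299 with Combo. The spread within groups was wide, with replicate 1 highest and replicate 2 lowest each time, yet the highest Combo library stayed below the lowest DMSO library. ALDOC showed the largest fall of the 38 with Combo (-2.74 ± 0.47, adjusted p = 0.00125). Its differences with iDOT1L, -0.93 ± 0.47 (adjusted p = 0.334), and iEZH2, -1.67 ± 0.47 (0.0779), were called as pairs only (0.000844 and 9.49e-06).

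The bifunctional PFKFB enzymes set the level of fructose 2,6-bisphosphate, the strongest activator of phosphofructokinase. PFKFB4 (ENSG00000114268, chr3:48517684-48562015) read 1231, 683, 1238 and 1078 normalised counts with DMSO, 1211, 274, 548 and 479 with iDOT1L, 878, 207, 385 and 285 with iEZH2, and 328, 79.4, 136 and 163 with Combo. Combo libraries all lay below DMSO, whereas iDOT1L and iEZH2 overlapped DMSO through replicate 1. PFKFB4 fell by 2.72 on the log2 scale with Combo (SE 0.53, adjusted p = 0.00288), and differed by -0.92 ± 0.53 with iDOT1L (adjusted p = 0.405, as pairs 0.00498) and -1.45 ± 0.53 with iEZH2 (0.182, as pairs 0.000212). PFKFB3, the related form, was called in no comparison and averaged 1709 ± 119 normalised counts with DMSO and 1660.5 ± 14.5 with Combo (mean ± SD, n = 4); its log2 fold changes were -0.13, -0.07 and -0.04 with iDOT1L, iEZH2 and Combo (SE 0.09; adjusted p = 0.533, 0.773 and 0.84).

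**Figure D3:**
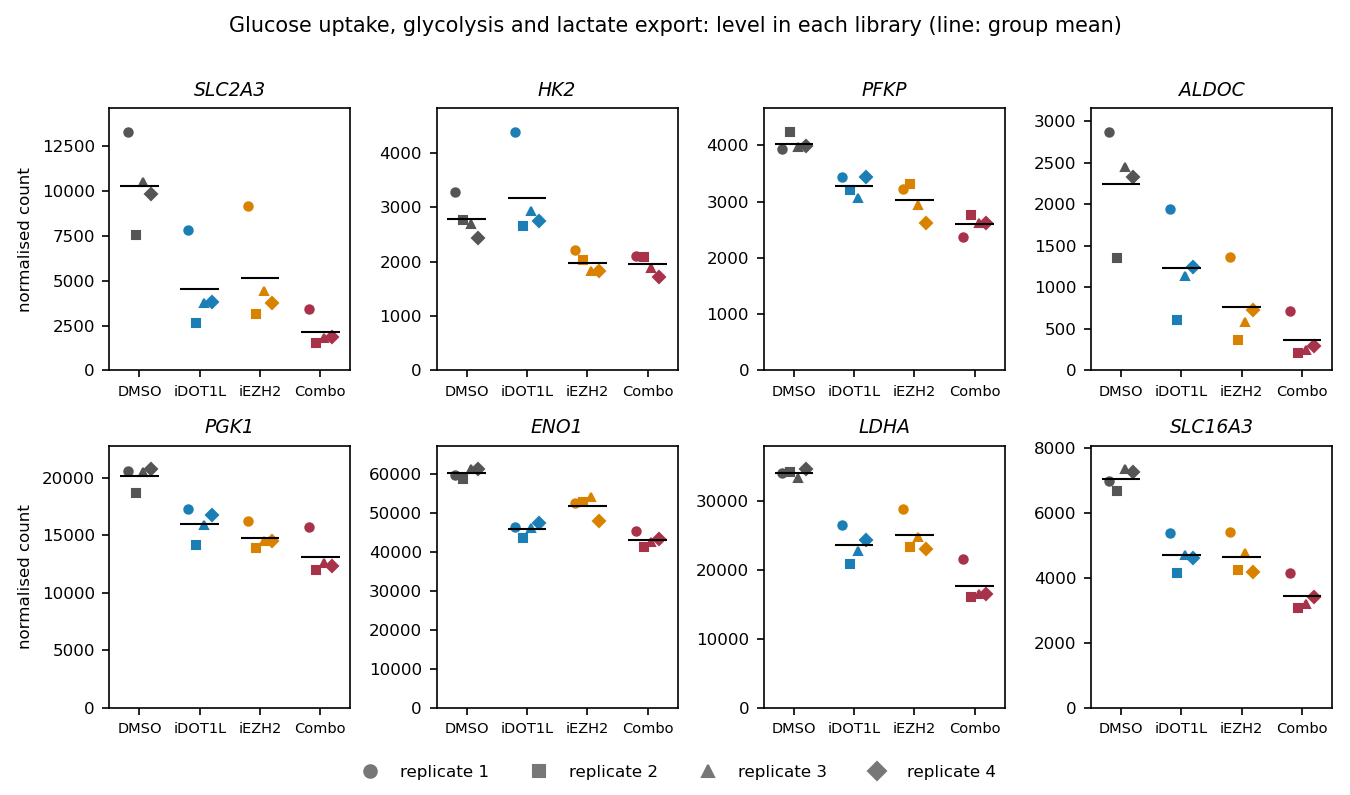
Normalised counts (y axis, from 0) of 8 genes of glucose uptake, glycolysis and lactate export in each library, by group (x axis); symbols give the replicate number and lines the group mean. For PFKP, PGK1, ENO1, LDHA and SLC16A3 the 4 DMSO libraries lie above all 12 treated libraries, while for SLC2A3 and ALDOC replicate 1 of each single treatment reaches the DMSO range.

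Of the 7 genes from triose phosphate to pyruvate, 5 fell with Combo, 2 with iDOT1L and 2 with iEZH2. These enzymes were among the most abundant of the 38: per kb of transcript GAPDH led with 43161 normalised counts with DMSO, before ALDOA with 30985 and ENO1 with 25675. TPI1 (ENSG00000111669, chr12:6867119-6870948), which interconverts the triose phosphates, read 16026, 15422, 15929 and 16899 normalised counts with DMSO, 13591, 12219, 13356 and 14909 with iDOT1L, 13672, 11770.0, 13412 and 13146 with iEZH2, and 13688, 9449.7, 10402 and 11352 with Combo. Its treated libraries all lay below its DMSO libraries. TPI1 fell with Combo (-0.53 ± 0.10, adjusted p = 0.000704), and differed by -0.25 ± 0.10 with iDOT1L (adjusted p = 0.149, as pairs 0.0188) and -0.31 ± 0.10 with iEZH2 (0.0934, as pairs 0.00662). PGK1 (ENSG00000102144, chrX:77910739-78129296), which makes the first ATP of the pathway, read 20545, 18670.5, 20515 and 20717 normalised counts with DMSO, 17240.1, 14167, 15915 and 16720.2 with iDOT1L, 16239, 13902, 14517 and 14517 with iEZH2, and 15719.6, 11995, 12571 and 12279.9 with Combo. Again no treated library reached the DMSO range. PGK1 fell with iDOT1L (-0.33 ± 0.09, adjusted p = 0.0301), iEZH2 (-0.44 ± 0.09, 0.00775) and Combo (-0.62 ± 0.09, 6.9e-05). The iDOT1L call ended in 5 of 8 fits that left out 1 library (adjusted p up to 0.105).

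PGAM1 (ENSG00000171314, chr10:97426160-97433441), a phosphoglycerate mutase, read 23474, 24322, 23744 and 23511 normalised counts with DMSO, 20554, 19343, 19936 and 20630.4 with iDOT1L, 19774, 18895, 19213 and 17845 with iEZH2, and 19197, 15182, 15386 and 16033 with Combo. All 12 treated libraries lay below the 4 DMSO libraries. PGAM1 fell with iEZH2 (-0.33 ± 0.07, adjusted p = 0.0158) and Combo (-0.54 ± 0.07, 4.3e-05), and with iDOT1L it differed by -0.24 ± 0.07 (adjusted p = 0.0596, as pairs 0.0103). Its iEZH2 call was lost without DMSO replicate 3 or without iEZH2 replicate 4 (adjusted p up to 0.0551), and 35.7% of its words are shared with other genes, which makes its level uncertain. ENO1 (ENSG00000074800, chr1:8861000-8879250), the main enolase, read 59667, 58826, 61157 and 61184 normalised counts with DMSO, 46492, 43474, 46007 and 47491 with iDOT1L, 52494, 52896, 53971 and 47911 with iEZH2, and 45328, 41184, 42524 and 43369.9 with Combo. The 4 iDOT1L and 4 Combo libraries lay lowest, iEZH2 lay between them and DMSO, and no treated library reached DMSO. ENO1 fell with iDOT1L (-0.39 ± 0.06, adjusted p = 0.000471) and Combo (-0.48 ± 0.06, 2.08e-05), and differed by -0.22 ± 0.06 with iEZH2 (adjusted p = 0.0596, as pairs 0.00633). PKM (ENSG00000067225, chr15:72199029-72231822), the pyruvate kinase of most cells, read 32153, 30481, 30389 and 30961 normalised counts with DMSO, 34073, 26272, 28061 and 29792 with iDOT1L, 32684, 22871, 25241 and 27825 with iEZH2, and 27324, 21786, 21169 and 22757 with Combo. Its Combo libraries lay below DMSO and the other treatments overlapped DMSO through replicate 1. PKM fell with Combo (-0.42 ± 0.11, adjusted p = 0.00897), and was called lower with iEZH2 as pairs only (-0.20 ± 0.11, adjusted p = 0.369, as pairs 0.0337).

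GAPDH and ENO2 were not called against DMSO without pairing. GAPDH, often used as a reference gene, averaged 80928 ± 5363 normalised counts with DMSO, 76458 ± 8186 with iDOT1L, 69855 ± 6870.0 with iEZH2 and 67295 ± 10690.2 with Combo (mean ± SD, n = 4). Its log2 fold change with Combo was -0.28 ± 0.11 (adjusted p = 0.0915), and 29.1% of its words are shared with other genes. With iEZH2 it differed by -0.22 ± 0.11 (adjusted p = 0.353, as pairs 0.0262). ENO2, the neuronal enolase, had log2 fold changes of 0.16 ± 0.38 for iDOT1L, -0.52 ± 0.38 for iEZH2 and -0.48 ± 0.38 for Combo (adjusted p = 0.883, 0.56 and 0.45; as pairs 0.0467 with iEZH2). Its libraries ranged from 77.5 to 429 normalised counts, replicate 1 being the highest and replicate 2 the lowest of each group.

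With Combo, the 2 smallest adjusted p of the 38 belonged to lactate handling. LDHA (ENSG00000134333, chr11:18394388-18408425), which favours the reduction of pyruvate to lactate, read 33987, 34121, 33328 and 34518 normalised counts with DMSO, 26438, 20791, 22637 and 24296 with iDOT1L, 28819, 23292, 24774 and 22912 with iEZH2, and 21533, 16075, 16451 and 16506 with Combo. The DMSO libraries lay close together and above all 12 others, and the Combo libraries were lowest apart from replicate 1, which lay within the iDOT1L range. LDHA fell in the iDOT1L libraries (-0.54 ± 0.10, adjusted p = 0.00196), with iEZH2 (-0.45 ± 0.10, 0.0131) and with Combo (-0.96 ± 0.10, 2.11e-06). LDHB, which favours the reverse reaction, averaged 22354 ± 1428 normalised counts with DMSO and 20989 ± 1548 with Combo (mean ± SD, n = 4) and was called in no comparison (-0.18 ± 0.08, -0.00 ± 0.08 and -0.09 ± 0.08 with iDOT1L, iEZH2 and Combo; adjusted p = 0.254, 0.991 and 0.519). Its level is uncertain, with 31.4% of its words shared. Per kb of transcript LDHA stood at 0.924 to 1.06 of LDHB with DMSO, 0.68 to 0.953 with iDOT1L, 0.634 to 0.915 with iEZH2 and 0.499 to 0.599 with Combo. This ratio, too, was chosen after the values were seen and carries no test.

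SLC16A3 (ENSG00000141526, chr17:82228397-82261129), which encodes the lactate exporter MCT4, read 6959, 6653, 7329 and 7247 normalised counts with DMSO, 5360.4, 4138, 4686 and 4614 with iDOT1L, 5390.0, 4244, 4754 and 4167 with iEZH2, and 4138, 3051, 3198 and 3402 with Combo. Its DMSO libraries lay above all treated ones, and its single treatments lay at about the same level. SLC16A3 fell in the iDOT1L libraries (-0.59 ± 0.10, adjusted p = 0.00141), with iEZH2 (-0.61 ± 0.10, 0.00243) and with Combo (-1.04 ± 0.10, 1.49e-06, the smallest adjusted p of the 38). SLC16A1 (ENSG00000155380, chr1:112911847-112957013) encodes MCT1, which carries lactate in either direction. It read 1346, 1769.9, 1260.2 and 1178 normalised counts with DMSO, 697, 1059, 962 and 819.5 with iDOT1L, 1451, 1822, 1227 and 949 with iEZH2, and 970.0, 1213, 958 and 853 with Combo. Its iDOT1L libraries were all below DMSO, its iEZH2 libraries overlapped DMSO on both sides, and replicate 2 was the highest of each group. SLC16A1 fell with iDOT1L (-0.65 ± 0.18, adjusted p = 0.0354), a call lost in 6 of 8 fits that left out 1 library (adjusted p up to 0.116). With iEZH2 the difference was -0.05 ± 0.18 (adjusted p = 0.933) and with Combo -0.47 ± 0.18 (0.0853).

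PFKP, PGK1, LDHA and SLC16A3 fell in each comparison against the shared DMSO libraries. The promoters of the 3 with the largest falls with Combo are printed to show where, in 1 window each, the core of the hypoxia response element, the site known to bind HIF1, occurs; other entries of SLC16A3 and PFKP hold cores that these windows do not. Each is the RefSeq entry (GRCh38.p14, plus strand, 250 bases before to 50 after the start) nearest the start of the principal transcript, which lay 1212 bases away for SLC16A3, 175 for LDHA and 450 for PFKP. Capitals mark the cores ACGTG and GCGTG on either strand, which read CACGT and CACGC where they lie on the reverse strand.
SLC16A3 chr17:82234649-82234948: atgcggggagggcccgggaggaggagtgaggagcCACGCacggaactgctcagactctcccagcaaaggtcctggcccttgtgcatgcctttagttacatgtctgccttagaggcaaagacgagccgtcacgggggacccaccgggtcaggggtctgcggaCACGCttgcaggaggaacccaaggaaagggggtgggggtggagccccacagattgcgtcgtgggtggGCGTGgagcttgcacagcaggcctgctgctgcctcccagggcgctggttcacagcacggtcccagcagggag
LDHA chr11:18394313-18394612: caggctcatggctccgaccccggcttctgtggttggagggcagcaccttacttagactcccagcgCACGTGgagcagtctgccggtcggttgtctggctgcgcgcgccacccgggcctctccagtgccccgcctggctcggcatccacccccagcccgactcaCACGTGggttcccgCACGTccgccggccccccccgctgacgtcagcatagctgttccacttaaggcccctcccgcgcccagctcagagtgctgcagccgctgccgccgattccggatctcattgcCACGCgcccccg
PFKP chr10:3067720-3068019: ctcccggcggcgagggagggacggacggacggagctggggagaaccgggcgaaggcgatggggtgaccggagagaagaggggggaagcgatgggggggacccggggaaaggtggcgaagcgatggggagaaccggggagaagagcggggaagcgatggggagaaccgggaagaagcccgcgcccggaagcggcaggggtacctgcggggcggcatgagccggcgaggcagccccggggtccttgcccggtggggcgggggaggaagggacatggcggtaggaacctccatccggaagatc
The LDHA window held ACGTG 5 times and GCGTG once; a palindromic CACGTG, which is also an E-box, counts on both strands, so these 5 lie at 3 places, whose first printed bases lie 185, 87 and 73 bases before the start. The SLC16A3 window held GCGTG 3 times, with first bases 216, 89 and 22 bases before the start, and no ACGTG. The PFKP window held neither. Another SLC16A3 entry held ACGTG 2 times, and among the other PFKP entries 1 held ACGTG once and 1 held GCGTG 3 times.

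Promoter entries were found for 33 of the 38 members, 63 entries in all. Of the 33 genes, 30 had ACGTG or GCGTG in at least 1 entry. The same share by gene was not computed over all genes, so this count has no background beside it. A gene with more entries also has more chances of a match. By entry, 66.7% held either core, against 48.4% of all 35116 promoter entries of the same 300 bases. ACGTG alone was in 38.1% of members' entries and 21.4% of all, GCGTG in 42.9% and 36.5%, and CACGTG, which holds ACGTG on both strands, in 12.7% and 7.26%. Genes have unequal numbers of entries, and a match is a description of letters, not of a bound site. EGLN3, HK3 and PGAM1 had neither core in any entry, and of these HK3 and PGAM1 fell with Combo and EGLN3 was not called. HK1 had GCGTG in 2 of its 7 entries. Genes with and without a core were not compared, so a link between core and fall was not tested.

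The pyruvate dehydrogenase kinases hold pyruvate back from mitochondrial oxidation. PDK1 (ENSG00000152256, chr2:172555373-172608669), a well-known target of HIF1, read 1927, 1620.1, 1610.2 and 1503 normalised counts with DMSO, 1626, 890.3, 931 and 1024 with iDOT1L, 1533, 855, 1057 and 938 with iEZH2, and 896, 546, 537 and 682 with Combo. All Combo libraries lay below DMSO, and with each single compound only replicate 1 reached the DMSO range. PDK1 fell with Combo (-1.35 ± 0.20, adjusted p = 0.000161), and differed by -0.61 ± 0.20 with iDOT1L (adjusted p = 0.091, as pairs 0.000394) and -0.63 ± 0.20 with iEZH2 (0.106, as pairs 0.000443). PDK3 averaged 122 ± 17.5 normalised counts with DMSO and 104 ± 23.9 with Combo, overlapped DMSO under every treatment and was called under none (-0.23 ± 0.19 with Combo, adjusted p = 0.459).

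HIF1A and the prolyl hydroxylase EGLN1 fell with Combo, and EGLN3 showed another pattern. HIF1A (ENSG00000100644, chr14:61695513-61748259) read 1670.2, 1627, 1576 and 1367 normalised counts with DMSO, 1842, 1305, 1216 and 1313 with iDOT1L, 1799, 1360.0, 1405 and 1200.5 with iEZH2, and 1285, 1102, 1001 and 1049 with Combo. Combo libraries were below DMSO by a narrow gap, and replicate 1 of each single treatment lay above all DMSO libraries. HIF1A transcript fell with Combo (-0.49 ± 0.13, adjusted p = 0.015, and 0.0545 without Combo replicate 3). It differed by -0.15 ± 0.13 with iDOT1L and -0.13 ± 0.13 with iEZH2 (adjusted p = 0.612 and 0.718). HIF1 activity is set mainly by the stability of the protein, which was not measured. EGLN1 (ENSG00000135766, chr1:231363751-231425044), the main oxygen-sensing hydroxylase and itself responsive to HIF1, read 4729, 4526, 4634 and 4108 normalised counts with DMSO, 3459, 2805, 2298 and 2508 with iDOT1L, 4981, 3748, 3633 and 2398 with iEZH2, and 2189.5, 2053, 1729.6 and 1624 with Combo. All iDOT1L and Combo libraries lay below DMSO, while iEZH2 spread from above the DMSO range to far below it. EGLN1 fell with iDOT1L (-0.72 ± 0.17, adjusted p = 0.0141, and 0.0582 without iDOT1L replicate 3) and with Combo (-1.25 ± 0.17, adjusted p = 4.47e-05), and differed by -0.33 ± 0.17 with iEZH2 (adjusted p = 0.363).

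EGLN3 (ENSG00000129521, chr14:33924231-34462774), a hydroxylase strongly induced by HIF1 in many cells, had the lowest mean of the 38 with DMSO and with iDOT1L. It read 16.4, 8.17, 13.3 and 11.9 normalised counts with DMSO, 18.8, 5.67, 5.73 and 15.5 with iDOT1L, 119, 18, 47.3 and 88.4 with iEZH2, and 49.6, 2.45, 10.7 and 23.5 with Combo. Every iEZH2 library lay above every DMSO library, and the Combo libraries spread from below to above the DMSO range. With iEZH2 the log2 fold change was 2.10 ± 0.69 (adjusted p = 0.115, as pairs 0.00196), the only member called higher with iEZH2 in the paired fit. With iDOT1L it was -0.25 ± 0.69 and with Combo 0.19 ± 0.69 (adjusted p = 0.904 and 0.895).

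**Figure D4:**
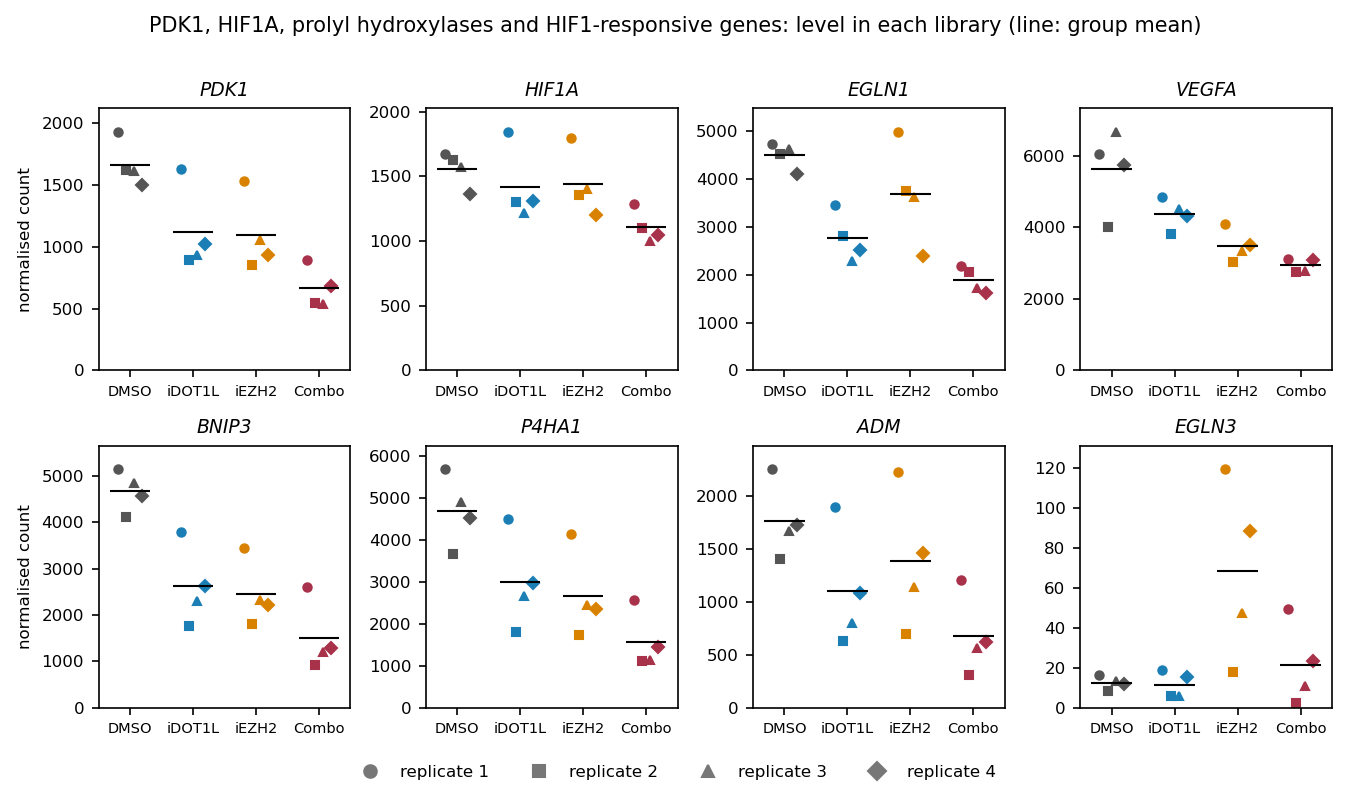
Normalised counts (y axis, from 0) of PDK1, HIF1A, the prolyl hydroxylases EGLN1 and EGLN3 and 4 HIF1-responsive genes in each library, by group (x axis); symbols give the replicate number and lines the group mean. The 4 Combo libraries lie below the 4 DMSO libraries in all panels but EGLN3, where the iEZH2 libraries lie above the DMSO libraries and spread from 18 to 119.

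Of the 9 other HIF1-responsive members, 7 fell with Combo, 1 with iEZH2 and none with iDOT1L, and the median log2 fold change of the 9 was -0.34, -0.61 and -0.99 with iDOT1L, iEZH2 and Combo. VEGFA (ENSG00000112715, chr6:43770184-43786487), the secreted factor that drives vessel growth, read 6045, 4021, 6656 and 5734 normalised counts with DMSO, 4848, 3805, 4513 and 4307 with iDOT1L, 4098, 3017, 3345 and 3492 with iEZH2, and 3105, 2754, 2789.7 and 3083 with Combo. The Combo libraries lay below all DMSO libraries, and iEZH2 overlapped DMSO only between its replicate 1 and DMSO replicate 2. VEGFA fell with iEZH2 (-0.67 ± 0.13, adjusted p = 0.00584) and Combo (-0.91 ± 0.13, 5.53e-05), and differed by -0.34 ± 0.13 with iDOT1L (adjusted p = 0.14, as pairs 0.011). P4HA1 (ENSG00000122884, chr10:73007217-73096974), a collagen prolyl hydroxylase subunit, read 5676, 3664, 4891 and 4516 normalised counts with DMSO, 4493, 1813, 2665 and 2962 with iDOT1L, 4142, 1737, 2443 and 2339 with iEZH2, and 2563, 1113, 1137 and 1456 with Combo. Replicate 1 was highest and replicate 2 lowest in each group, and the Combo libraries all lay below DMSO. P4HA1 fell with Combo (-1.65 ± 0.32, adjusted p = 0.00244), and differed by -0.71 ± 0.32 with iDOT1L (adjusted p = 0.262, as pairs 0.000495) and -0.87 ± 0.32 with iEZH2 (0.182, as pairs 0.000133).

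BNIP3 and BNIP3L encode receptors that hand mitochondria to autophagy. BNIP3 (ENSG00000176171, chr10:131966455-131982013) read 5138, 4109, 4845 and 4563 normalised counts with DMSO, 3789, 1769, 2308 and 2620.1 with iDOT1L, 3448, 1804, 2328 and 2215 with iEZH2, and 2599, 914, 1192 and 1285 with Combo. Its treated libraries all lay below DMSO, with replicate 1 highest and replicate 2 lowest in each group. BNIP3 fell with Combo (-1.75 ± 0.29, adjusted p = 0.000641), and differed by -0.88 ± 0.29 with iDOT1L (adjusted p = 0.0939, as pairs 0.000379) and -0.97 ± 0.29 with iEZH2 (0.0902, as pairs 0.000279). BNIP3L read 2135, 1496, 2083 and 1683 normalised counts with DMSO, 2322, 1178, 1552 and 1615 with iDOT1L, 1802, 871, 1173 and 1216 with iEZH2, and 1226, 819, 764 and 866 with Combo. Only Combo was clear of the DMSO range. BNIP3L fell with Combo (-1.02 ± 0.22, adjusted p = 0.00376), and differed by -0.18 ± 0.22 with iDOT1L (adjusted p = 0.747) and -0.58 ± 0.22 with iEZH2 (0.187, as pairs 0.00127).

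ADM (ENSG00000148926, chr11:10304680-10307397), which encodes the vasodilator peptide adrenomedullin, read 2251, 1404, 1671 and 1723 normalised counts with DMSO, 1899, 630.5, 800.0 and 1084 with iDOT1L, 2227, 698, 1142 and 1463 with iEZH2, and 1208, 306, 563 and 625 with Combo. Combo libraries lay below DMSO, but the spread over replicates was wide. ADM fell with Combo (-1.53 ± 0.44, adjusted p = 0.0298), a call lost in 6 of 8 fits that left out 1 library (adjusted p up to 0.0829). With iDOT1L it differed by -0.78 ± 0.44 (adjusted p = 0.391, as pairs 0.00211) and with iEZH2 by -0.45 ± 0.44 (0.693). ANKRD37 (ENSG00000186352, chr4:185396021-185400628), an ankyrin repeat protein, read 188, 227, 231 and 187 normalised counts with DMSO, 183, 156, 142 and 176 with iDOT1L, 212, 123, 183 and 130.3 with iEZH2, and 187, 73.1, 117 and 118 with Combo. Combo replicate 1 lay just under the lowest DMSO library and the other Combo libraries well under it. ANKRD37 fell with Combo (-0.82 ± 0.22, adjusted p = 0.0174), and the call was lost without DMSO replicate 3 or without Combo replicate 2 (adjusted p up to 0.0572). Its iDOT1L libraries also lay below DMSO, uncalled (-0.34 ± 0.22, adjusted p = 0.469), and with iEZH2 it differed by -0.39 ± 0.22 (0.431). With 33.5% of its words shared, mostly with the neighbouring gene UFSP2, its level is uncertain.

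KDM3A (ENSG00000115548, chr2:86440647-86492716), a histone demethylase that needs oxygen, read 3884, 3108, 3457 and 2919.5 normalised counts with DMSO, 4754, 2723, 3179.9 and 3407 with iDOT1L, 3486, 2176, 2710.5 and 2587 with iEZH2, and 2736, 2053, 2143 and 2379.9 with Combo. Only Combo lay wholly below DMSO. KDM3A fell with Combo (-0.52 ± 0.16, adjusted p = 0.0288), a call lost in 5 of 8 fits that left out 1 library (adjusted p up to 0.0964), and was called lower with iEZH2 as pairs only (-0.30 ± 0.16, adjusted p = 0.378, as pairs 0.0202). NDRG1, a stress-responsive gene, and MXI1, an antagonist of MYC, were not called without pairing. NDRG1 averaged 4190.3 ± 1172 normalised counts with DMSO and 2149.9 ± 834 with Combo (mean ± SD, n = 4; -0.99 ± 0.44, adjusted p = 0.158), and differed by -0.63 ± 0.44 with iEZH2 (adjusted p = 0.546, as pairs 0.035). MXI1 averaged 3211 ± 477 with DMSO, 3380.3 ± 1098 with iDOT1L, 2130.1 ± 557 with iEZH2 and 2169 ± 567 with Combo. Its log2 fold change was -0.61 ± 0.21 with iEZH2 (adjusted p = 0.139, as pairs 3.92e-05) and -0.59 ± 0.21 with Combo (0.0713).

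Combo was next set against each single compound. Against iDOT1L, 6 of the 38 were lower and none higher, beside 1.48% of all genes called lower and 1.11% higher. They were HK2 (-0.68 ± 0.13, adjusted p = 0.0105), PFKP (-0.34, 0.0311), PGAM1 (-0.30, 0.0367), LDHA (-0.42, 0.0266), SLC16A3 (-0.45, 0.0251) and VEGFA (-0.57, 0.0218). The count was 1 without iDOT1L replicate 1, 2 without iDOT1L replicate 3, 2 without iDOT1L replicate 4, 3 without Combo replicate 2, 1 without Combo replicate 3 and 2 without Combo replicate 4, and it was 14 without Combo replicate 1. In the same order 77, 143, 202, 342, 118, 123 and 223 of all genes were called lower, beside 330 with every library. HK2 alone kept its call in all 8 fits that left out 1 library. Against iEZH2, 5 of the 38 were lower and none higher, beside 1.72% of all genes called lower and 2.08% higher. They were PFKL (-0.28 ± 0.07, adjusted p = 0.0281), ENO1 (-0.27, 0.0173), LDHA (-0.50, 0.00467), SLC16A3 (-0.43, 0.0219) and EGLN1 (-0.92, 0.00304). That count was 2 without iEZH2 replicate 1, 2 without iEZH2 replicate 3, 3 without Combo replicate 3 and 3 without Combo replicate 4, and it was 8 without iEZH2 replicate 4 and 10 without Combo replicate 1. In the same order 217, 228, 240, 266, 640 and 329 of all genes were called lower, beside 385 with every library. LDHA and EGLN1 kept their calls in all 8 fits. With the replicate number as a block, 27 of the 38 were lower against iDOT1L and 22 against iEZH2, and none was higher. Of all genes, 6.256% and 5.239% were then called lower and 3.775% and 4.326% higher.

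Between the single compounds, 2 of the 38 were lower and 1 higher with iDOT1L than with iEZH2, beside 3.06% and 3.88% of all genes. HK2 was higher with iDOT1L (0.66 ± 0.13, adjusted p = 0.00415) and kept this call in all 8 fits that left out 1 library. SLC16A1 (-0.60 ± 0.18, adjusted p = 0.0499) and EGLN3 (-2.35 ± 0.69, 0.0476) were lower with iDOT1L, close to the threshold, and lost the call in 6 and 7 of 8 such fits (adjusted p up to 0.177 and 0.14). With same-numbered libraries as pairs, 4 were lower and 8 higher with iDOT1L, beside 6.91% and 7.35% of all genes. Called higher as pairs, in addition to HK2, were ALDOA (0.22, as pairs 0.037), ALDOC (0.74, 0.00407), ENO2 (0.69, 0.00673), VEGFA (0.33, 0.0128), BNIP3L (0.40, 0.0118), KDM3A (0.35, 0.00509) and MXI1 (0.65, 1.21e-05). Called lower as pairs were also ENO1 (-0.18, 0.0182) and EGLN1 (-0.38, 0.0218).

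The interaction, Combo minus iDOT1L minus iEZH2 plus DMSO in log2, asks whether the compounds together moved a gene by more or less than the sum of their separate log2 changes. None of the 38 was called, as none of the 22331 genes was (0.0% called; lowest adjusted p of all genes = 0.0895). At an unadjusted p under 0.05 in the same limma fit, 0 of the 38 and 848 of all genes (3.8%) stood out. For the 38 the interaction ranged from -1.65 for EGLN3 (SE 0.97) to 0.68 for HK3 (SE 0.51), with a median of -0.03. For LDHA it was 0.03 ± 0.14 and for SLC16A3 0.16 ± 0.15. A miss of the threshold does not show that the changes add up exactly.

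Other genes of the same pathways were taken from lists chosen by symbol, also with earlier results of these data known. In each list those with the smallest adjusted p are named. Their counts stand beside the shares of all genes called against DMSO, which were 8.8% lower and 7.22% higher with Combo, 3.17% and 3.08% with iDOT1L and 2.05% and 1.3% with iEZH2; as pairs they were 6.53% and 5.69% with iDOT1L and 5.89% and 3.87% with iEZH2. Of 19 other glycolysis enzymes and isoforms tested, 2 fell and 1 rose with Combo (median log2 fold change 0.08). LDHD, the D-lactate dehydrogenase, fell with iDOT1L (-1.42 ± 0.24, adjusted p = 0.000795), iEZH2 (-0.96 ± 0.24, 0.0284, lost in 6 of 8 fits that left out 1 library, up to 0.105) and Combo (-1.79 ± 0.24, 2.85e-05). SLC2A5, a fructose transporter, fell with iDOT1L (-0.75 ± 0.13, 0.00147) and Combo (-0.83 ± 0.13, 0.000207). SLC2A6, scarce at 5 ± 3.31 normalised counts with DMSO and 12.6 ± 3.42 with Combo, rose with Combo (1.28 ± 0.36, 0.0209, lost in 5 of 8 such fits, up to 0.0635). Of 11 genes of pyruvate oxidation, 2 fell and 3 rose with Combo and none was called with a single compound; as pairs 3 fell and 1 rose with iDOT1L and 1 rose with iEZH2. PDP1, a phosphatase that reactivates pyruvate dehydrogenase, rose (0.82 ± 0.14, 0.000406), as did MPC1, a subunit of the mitochondrial pyruvate carrier (0.43 ± 0.12, 0.0171, and up to 0.0596 without DMSO replicate 1 or without Combo replicate 3), while the phosphatase PDP2 fell (-0.53 ± 0.12, 0.00516). PDK2, another pyruvate dehydrogenase kinase, also rose and DLD, a subunit of the dehydrogenase complex, also fell. PDK2 and DLD are named after their values were seen. The level of PDK2 is uncertain, with 38.1% of its words shared, mostly with SAMD14.

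None of 16 citric acid cycle genes was called with Combo (median 0.06). None was called with iEZH2 either, but as pairs 1 was higher, IDH3A, a subunit of isocitrate dehydrogenase, which is named after its values were seen. The level of IDH3A is uncertain, with 38.1% of its words shared, mostly with ACSBG1. SUCLG2, a subunit of succinyl-CoA ligase, fell with iDOT1L (-0.26 ± 0.07, adjusted p = 0.0266, lost in 6 of 8 fits that left out 1 library, up to 0.0781). Of 11 pentose phosphate and hexosamine genes, 2 fell and 1 rose with Combo, 2 fell with iDOT1L and none was called with iEZH2; as pairs 3 fell and 1 rose with iDOT1L and 1 fell with iEZH2. GFPT1, the entry enzyme of hexosamine synthesis, fell with Combo (-0.76 ± 0.14, adjusted p = 0.000959), and the transaldolase TALDO1 rose (0.36 ± 0.09, 0.0127). PGM3, of the hexosamine route, fell with Combo (-0.61 ± 0.13, 0.00274) and with iDOT1L (-0.46 ± 0.13, 0.0436, lost in 6 of 8 such fits, up to 0.154). UAP1, of the same route, also fell with iDOT1L and is named after its values were seen. Of 5 genes around the glucose sensor MondoA, TXNIP, which restrains glucose uptake, fell with Combo (-0.97 ± 0.29, adjusted p = 0.0366, lost in 6 of 8 such fits, up to 0.103). With iEZH2 TXNIP differed by -0.82 ± 0.29 (adjusted p = 0.171, as pairs 0.000273). MLXIP, which encodes MondoA, rose with iDOT1L (0.32 ± 0.08, 0.0228, lost in 5 of 8 such fits, up to 0.0761).

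Of 11 genes of the HIF system itself, 2 fell and 1 rose with Combo. ARNT, the partner subunit of HIF1A, fell (-0.46 ± 0.14, adjusted p = 0.0298), HIF1AN, which blocks HIF1 by hydroxylation of an asparagine, fell (-0.42 ± 0.12, 0.0238), and ELOB, a subunit of the ubiquitin ligase that degrades HIF1A, rose (0.34 ± 0.11, 0.0335). Leaving out 1 library ended these calls in 6, 5 and 6 of 8 fits (adjusted p up to 0.104 for ARNT, 0.0963 for HIF1AN and 0.108 for ELOB). With iEZH2, 1 of the 11 was called, EPAS1, which encodes HIF2 alpha and was higher. With iDOT1L none was called, and as pairs EGLN2, another prolyl hydroxylase, was higher. The level of EGLN2 is uncertain, with 28.9% of its words shared with RAB4B-EGLN2. EPAS1 and EGLN2 are named after their values were seen. Of 34 other HIF1-responsive genes, 18 fell and 1 rose with Combo (median -0.64), 5 fell and 1 rose with iDOT1L (median -0.33), and 5 fell and none rose with iEZH2 (median -0.38). As pairs, 13 fell and 1 rose with iDOT1L and 18 fell with iEZH2, beside 6.53% and 5.89% of all genes called lower. PPFIA4, which encodes a liprin scaffold, fell by 1.93 on the log2 scale with Combo (SE 0.19, adjusted p = 1.6e-06), from 980.3 ± 110.3 to 256 ± 32.1 normalised counts (mean ± SD, n = 4). PLOD1, a collagen lysyl hydroxylase, fell with Combo (-1.21 ± 0.16, 3.94e-05), and JMJD6, an oxygenase of the same enzyme class, fell with iDOT1L (-0.44 ± 0.09, 0.00559), iEZH2 (-0.39 ± 0.09, 0.0219, lost in 4 of 8 such fits, up to 0.091) and Combo (-0.66 ± 0.09, 5.53e-05).

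**Figure D5:**
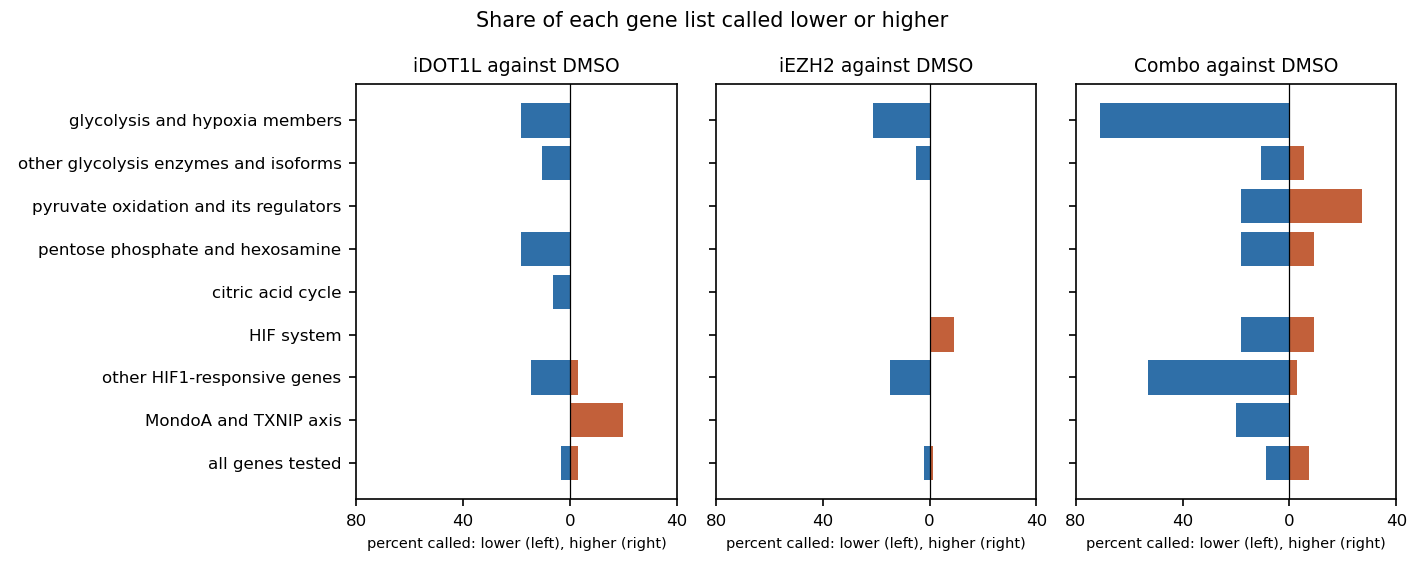
Percent of each gene list called lower (blue, to the left) and higher (red, to the right) at adjusted p under 0.05 against DMSO (x axis) for iDOT1L, iEZH2 and Combo, with all genes tested in the bottom row. With Combo the 38 genes reach 71.1% lower and the 34 other HIF1-responsive genes 52.9%, beside 8.8% of all genes, and the citric acid cycle has no bar.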

How the data were processed

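Per the submitters' processing notes, reads were quantified with kallisto and processed with DESeq2 on hg38; for tool versions, annotation and strand setting: not given in the sources used here. A table of 22445 Ensembl genes by 16 libraries was deposited, whose values are log2, on a variance-stabilised scale judging from their floor of 6.28 and their spread. Normalised counts were recovered by inverting that scale, so depth is an estimate (20.7 to 27.2 M reads), for which 62.4 to 65.5% of low values lay within 0.1 read of a whole number. Symbols came from GENCODE release 29, which matched 20784 IDs and left 1661 unmatched, and promoters from RefSeq.

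Groups and replicate numbers came from the sample titles. The members and gene lists were chosen with earlier results of these data known. Genes above 1 normalised count in at least 4 libraries (22331) were tested with limma 3.58.1 (R 4.3.3), trend and robust, on log2(normalised count + 1), with the 4 group means, 12 residual degrees of freedom and Benjamini-Hochberg adjustment, called at an adjusted p under 0.05. The scripts were tested on simulated data, drawn independently for each library with the same spread for every gene. No replicate effect was simulated, so that test does not cover the block fit or libraries that deviate together. Members called in at least 1 comparison with DMSO are described with every library, and the 3 genes of each other list with the smallest adjusted p are named where called.

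Same-numbered libraries deviated together, over 12270 genes, with correlations of 0.109 to 0.501 for iDOT1L and DMSO, 0.198 to 0.581 for iEZH2 and DMSO and 0.113 to 0.639 for iDOT1L and iEZH2, all above 0.1, so a fit with the replicate as a block is given there. Libraries of different numbers reached 0.326, 0.295 and 0.304 in the same order, above the lowest same-numbered values. The same number gave the best match in 3, 3 and 2 of 4 cases. For Combo the same-numbered correlations were 0.0515 to 0.441 with DMSO, 0.0362 to 0.394 with iDOT1L and 0.0528 to 0.482 with iEZH2. There the same number gave the best match in 2, 3 and 3 of 4 cases. Combo was set apart only by the limit of 0.1 on the lowest value. Words of 31 bases shared with other genes marked 6 members, over 20%, as uncertain. Alternatives were the deposited log2 values, a pseudocount of 8, no filter, a mean of at least 10, rescaling, only the groups compared, the block and leaving out libraries. No column of another sample was found (0), and the libraries correlated at 0.967 to 0.981.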

Additional observations from a re-analysis of the deposited data

Results flagged for a closer look

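In groups of 4, a single library was set apart where its gap to the nearest other took up more of the range of the group than Dixon's critical value at the 95% level. This held in 5 of 152 groups of 4 values examined, where chance would give about 1 in 20, or 7.6. LDHA, which favours the making of lactate, read 21533 normalised counts in Combo replicate 1 and 16075, 16451 and 16506 in the other Combo libraries. MXI1, the MYC antagonist, likewise read 3015 in Combo replicate 1 against 1827, 1856 and 1979.5 in the others. PFKL, the liver phosphofructokinase, read 5458.5 in Combo replicate 1 against 6269, 6399 and 6301. GPI, the isomerase, read 15301 in DMSO replicate 1 against 13756, 13803 and 13686. PGK1, the phosphoglycerate kinase, read 18670 in DMSO replicate 2 against 20545, 20515 and 20717.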

How the results depend on the processing

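With Combo against DMSO, the 27 lower members ranged from 24 to 29 when 1 library was left out, and the higher count from 0 to 1 (1 without Combo replicate 4). The other counts were less stable. With iDOT1L against DMSO, 7 lower became 21 with the replicate block and 14 without replicate 1 of every group, and 3 to 10 when 1 library was left out, and 0 higher became 1 with the block. With iEZH2, 8 lower became 26 with the block, 19 without replicate 1 of every group and 6 to 17 with 1 library left out, and 0 higher became 1 with the block and 1 when only the groups compared were fitted. For Combo against iDOT1L, 6 lower became 27 with the block, 18 without replicate 1 of every group, 10 among genes with a mean of at least 10, 2 with only the groups compared and 1 to 14 with 1 library left out. For Combo against iEZH2, 5 lower became 22 with the block, 10 without replicate 1 of every group, 2 with only the groups compared and 2 to 10 with 1 library left out. For Combo against DMSO the block gave 32 lower. For Combo the lowest same-numbered correlations lay under the limit of 0.1 set for the block, so only its block counts are given. The same number gave Combo its best match in 2, 3 and 3 of 4 cases, beside 3, 3 and 2 among the other groups. For iDOT1L against iEZH2, 2 lower became 4 with the block, 0 without replicate 1 of every group, 1 with the deposited log2 values, 1 with a pseudocount of 8, 1 with no filter, 1 after rescaling, 1 with only the groups compared and 0 to 3 with 1 library left out, while 1 higher became 8 with the block, 2 without replicate 1 of every group and 1 to 2 with 1 library left out. The interaction stayed at 0 throughout. Over all genes, leaving out 1 library gave 452 to 688 called lower with iDOT1L and 242 to 692 with iEZH2 against DMSO. For Combo it gave 77 to 342 against iDOT1L and 217 to 640 against iEZH2. For iDOT1L against iEZH2 it gave 409 to 810. Without replicate 1 of every group, 167 and 258 of all genes were lower for Combo against iDOT1L and iEZH2, beside 330 and 385 with every library. With only the groups compared these were 241 and 224. The cause of these shifts was not tested.

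Over all genes the block called 2729, 2180, 5499, 2240, 2136 and 3185 genes in the order iDOT1L, iEZH2 and Combo against DMSO, Combo against iDOT1L, Combo against iEZH2 and iDOT1L against iEZH2, where the fit without it called 1396, 748, 3579, 577, 850 and 1550. Of 114 single-member results against DMSO, all 114 kept direction and side of the threshold with the deposited log2 values, with a pseudocount of 8 and with no filter; 2 fell short after rescaling, and 39 passed in addition with the block. No called value changed sign under any of these settings, whereas 9 uncalled ones changed sign in at least 1 of the fits that left out a library: EGLN3 with Combo, HK1, LDHB and SLC16A1 with iEZH2, and HK2, ENO2, PDK3, KDM3A and MXI1 with iDOT1L. Without the members of uncertain level the lower counts were 7, 7 and 23 with iDOT1L, iEZH2 and Combo. Recovered counts limit the scarcest genes most: EGLN3 stood at 8.17 to 16.4 normalised counts with DMSO.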
